A study of Caenorhabditis elegans with 21 samples.

Results

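The autophagy genes of Caenorhabditis elegans were followed as a group of 31 genes across starved, fed, fertile and sterile animals. They were chosen by name. The group holds every gene whose name is atg, epg or lgg followed by a number, together with bec-1, unc-51, vps-34, vps-15, sqst-1, rab-7, hlh-30 and mxl-3. All 31 were listed in both deposited tables, which share 16715 genes, and all 31 passed the filter on low values, a mean of at least 10 normalized counts over the libraries of an experiment.

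Autophagy is the process by which a cell encloses part of its own content in a double membrane, the autophagosome, and delivers it to the lysosome for breakdown. A kinase complex starts the process, a lipid kinase marks the membrane, a set of transport and lipid-binding proteins lets it grow, and conjugation enzymes attach ubiquitin-like proteins of the ATG8 family to it. In C. elegans the process is known for survival of starved L1 larvae, for clearance of germline granules in the embryo, and for lifespan in long-lived mutants.

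All animals were of the wild-type strain N2, and RNA came from whole worms. In the larval experiment, control L1 larvae, whose ancestors had always been fed, were compared with F4+3 L1 larvae. The ancestors of F4+3 animals had been starved as L1 larvae for 6 days in each of 5 consecutive generations, after which 2 generations were raised on food. Each line was collected with food, 14 h after egg preparation, or without food, 18 h after egg preparation, with about 10000 animals in each of 3 replicates per group. In the adult experiment, 3 groups of day 1 adults were picked by hand, 100 animals per replicate and 3 replicates per group, all on food at the time. Control adults had always been fed. The F4 adults had themselves been starved for 6 days as L1 larvae, in the last of the 5 starved generations, and had then grown up on food. Control adults and fertile F4 L1-starved adults had to hold more than 5 eggs, and sterile F4 L1-starved adults held none. Fertile and sterile F4 adults came off the same plates. They share the starved ancestry and their own L1 starvation and differ in the outcome by which they were sorted. Food and hour of collection cannot be told apart in the larvae.

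The 12 larval libraries held between 25209530 and 53482585 reads, and the 9 adult libraries between 12187063 and 22942483. Values are counts normalized by the authors with DESeq2 size factors, separately for larvae and adults, so that levels were compared only within an experiment. A few libraries stood apart from their group: replicate 1 of the fertile adults, of the sterile adults and of the fed control larvae. In the fertile adults, replicate 1 differed from replicates 2 and 3 by a chi-square per gene of 36.8 and 32.5, against 7.07 between the latter. The values without the library are given where a call rests on it. The study describes its replicates as independent biological ones, and p-values measure the spread between them.

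The ATG8 proteins LGG-1 and LGG-2, which coat the autophagosome membrane, had the most abundant transcripts of the group in fed larvae when levels were set per kilobase of exon. In fed control larvae lgg-1 stood at 25887 normalized counts per kb and lgg-2 at 16370, followed by rab-7 at 11004. At the other end, atg-10 stood at 25.9. In control adults lgg-1 was again highest, at 4244 per kb, and atg-10 again lowest, at 57.7. The order in between differed: lgg-3 ranked just after rab-7 in control adults, at 1667 per kb, and mxl-3 was the next after lgg-1 in sterile adults, at 1443 per kb. Replicates of a group differed little for most members, with a median coefficient of variation of 10.2% in fed control larvae.

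Absence of food was accompanied by a broad rise of autophagy transcripts in L1 larvae. In control larvae 15 of the 31 genes rose without food and 4 fell, against 27.6% of all 15902 tested genes that rose and 30.5% that fell (limma, Benjamini-Hochberg adjusted p under 0.1). In F4+3 larvae 21 rose and 3 fell, against 27.1% and 30.4% of all genes. The median log2 fold change of the members was 0.29 in control and 0.53 in F4+3 larvae, while that of all tested genes was 0.04 and 0.02. All 15 genes that rose in control larvae were among the 21 that rose in F4+3 larvae, and 3 genes, atg-5, epg-3 and mxl-3, fell in both lines. Below, changes are log2 fold changes ± SE of animals without food against animals with food, and values are normalized counts of replicates 1, 2 and 3.

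**Figure D1:**
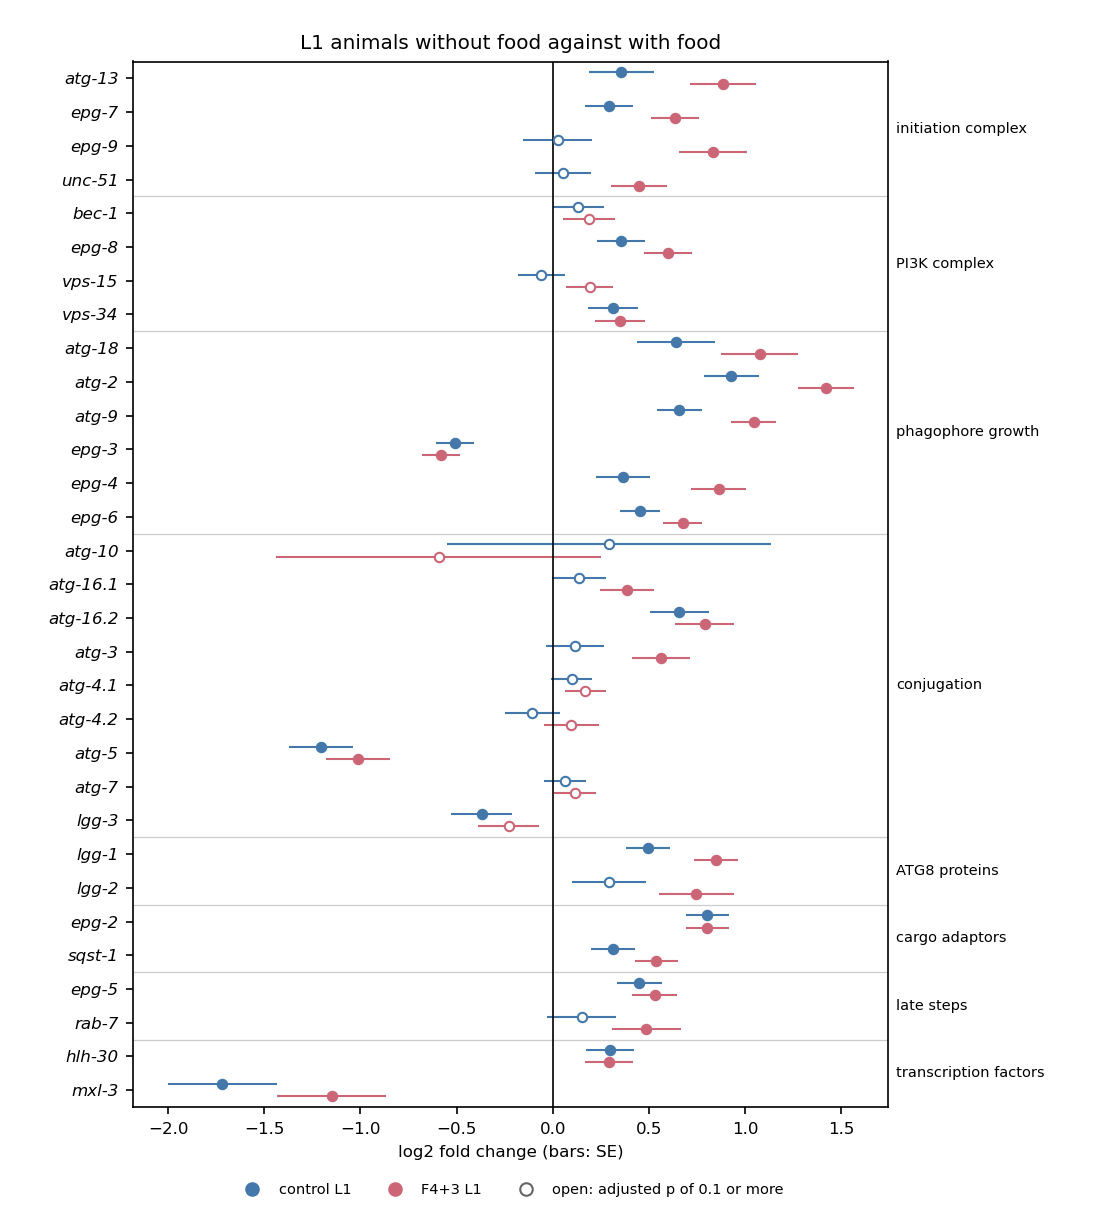
Log2 fold change of each autophagy gene without food against with food (x axis, bars are SE, n = 3 libraries per group), in control L1 (blue) and F4+3 L1 (red), with genes grouped by role. Filled points passed the adjusted p threshold of 0.1: 15 genes lie to the right and 4 to the left in control larvae, and 21 and 3 in F4+3 larvae.

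In the initiation complex, which is built around the kinase UNC-51, all 4 members rose in F4+3 larvae and 2 rose in control larvae. The regulatory subunit gene atg-13 was at 1392, 1651 and 1266 with food and at 1860.1, 1809 and 1815 without food in control larvae, and at 1168, 1103 and 681 against 1636, 1958 and 1727 in F4+3 larvae. The groups did not overlap in either line, and the rise was 0.36 ± 0.17 in control (adjusted p = 0.092) and 0.89 ± 0.17 in F4+3 larvae (adjusted p = 0.00046). The rise in control larvae missed the threshold in 8 of 19 alternative settings, with adjusted p between 0.0188 and 0.255. The scaffold gene epg-7 was at 4059, 4159.5 and 3473 with food and at 5132, 4465 and 4684 without food in control larvae, and at 2863, 2772 and 2185 against 3567, 4386 and 4161 in F4+3 larvae. It also separated in both lines and rose by 0.29 ± 0.12 (adjusted p = 0.064) and 0.64 ± 0.12 (adjusted p = 0.00057).

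The remaining members of the complex passed the test in F4+3 larvae alone, a difference between lines that did not pass the interaction test given further on. The gene epg-9, whose product binds ATG-13, was at 4484, 5149 and 3000.4 in fed and 8201, 7423 and 6441 in unfed F4+3 larvae, with no overlap and a rise of 0.83 ± 0.18 (adjusted p = 0.0011). In control larvae its values of 5361, 7707 and 7293 with food overlapped those of 6541, 6704 and 7248 without, and the log2 fold change was 0.03 ± 0.18. The kinase gene unc-51 was at 14861, 16688 and 17388 with food and 14969, 18491 and 17395 without food in control larvae, and at 12045, 15552 and 13345 against 22080, 19102 and 14992 in F4+3 larvae. The groups overlapped in both lines, and only the F4+3 change of 0.45 ± 0.14 passed (adjusted p = 0.018), while the control value was 0.05 ± 0.14 and crossed 0 without fed control replicate 1 or unfed control replicate 2.

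The lipid kinase complex, which makes phosphatidylinositol 3-phosphate on the growing membrane, had 2 of 4 members higher in each line. The kinase gene vps-34 was at 2004, 1711 and 1749 with food and 2663, 1980.1 and 2184 without food in control larvae, and at 1851, 1649 and 1504 against 1946, 2012 and 2427 in F4+3 larvae. It rose by 0.31 ± 0.13 in control (adjusted p = 0.058) and 0.35 ± 0.13 in F4+3 larvae (adjusted p = 0.037), with groups that overlapped in control larvae only. The gene epg-8, coding for the subunit that directs the complex to autophagy, was at 741, 788 and 690.2 with food and 989, 915 and 933 without food in control larvae, and at 656, 636 and 479.6 against 842, 899.6 and 915 in F4+3 larvae. All 6 unfed libraries lay above all 6 fed ones, with rises of 0.36 ± 0.12 (adjusted p = 0.027) and 0.60 ± 0.12 (adjusted p = 0.00095). Neither bec-1, the Beclin gene, nor vps-15, the regulatory subunit gene, passed in either line. Values of bec-1 were 1058, 1294 and 1258 against 1144, 1372 and 1449 in control and 1297, 1099 and 966 against 1356, 1307 and 1148 in F4+3 larvae, overlapping in both.

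In phagophore growth 5 of 6 members rose and 1 fell in each line, and the largest rise of all members in the limma fit was that of atg-2. This gene, for a lipid transfer protein that feeds the membrane, was at 10818, 12572 and 9171 with food and at 21757, 19445 and 20317 without food in control larvae, and at 7509, 7649 and 5327 against 17021, 19349 and 17804 in F4+3 larvae. It rose by 0.93 ± 0.14 in control (adjusted p = 7.5e-05) and 1.42 ± 0.14 in F4+3 larvae (adjusted p = 1.1e-06). Its partner atg-9, for the transmembrane protein of the vesicles that start the membrane, was at 4906, 5593 and 4605 against 8123, 7630.4 and 8019 in control and at 3629, 4013 and 2924 against 7127, 7548 and 6960.1 in F4+3 larvae. It rose by 0.66 ± 0.12 (adjusted p = 0.00026) and 1.05 ± 0.12 (adjusted p = 3.1e-06). For both genes every unfed library was above every fed library.

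**Figure D2:**
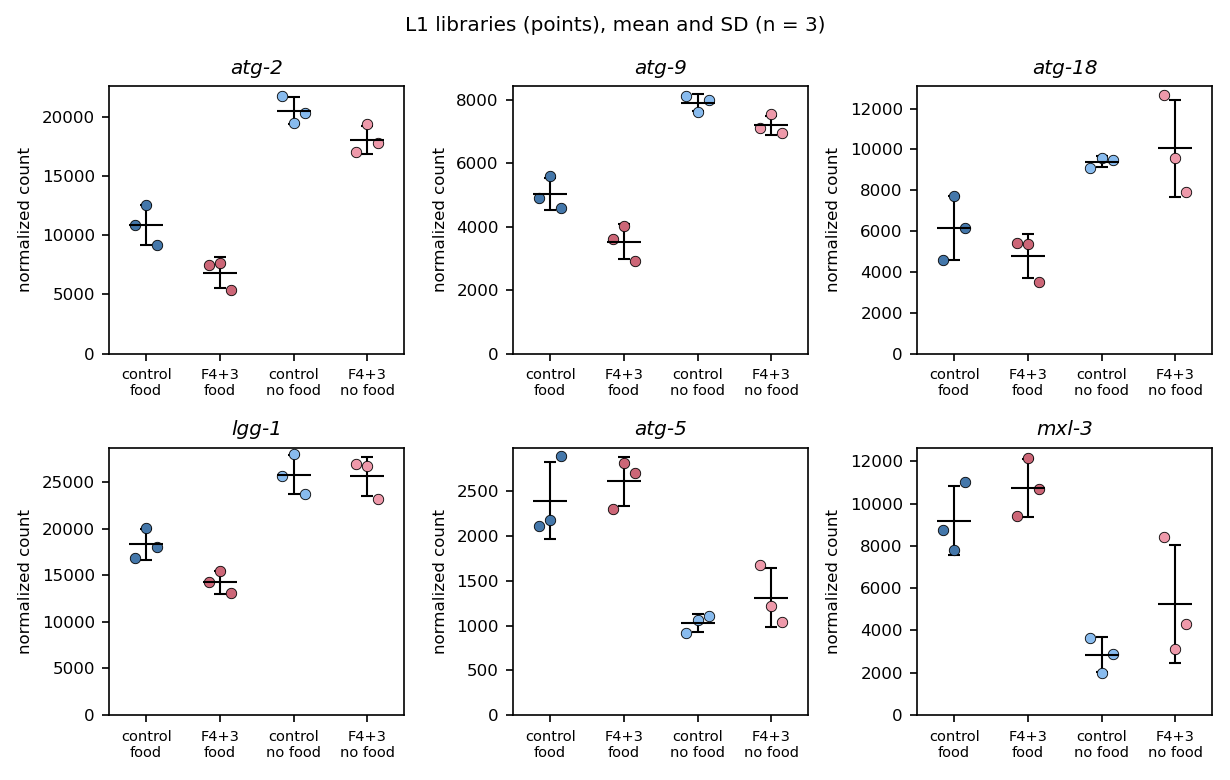
Normalized counts (y axis, linear from 0) of 6 autophagy genes in the 12 larval libraries (points), with the mean and SD of each group (black, n = 3). The genes atg-2, atg-9, atg-18 and lgg-1 are higher without food in every library, atg-5 is lower in every library, and for mxl-3 the unfed F4+3 replicate 1, at 8426, lies among the fed libraries.

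The lipid-binding WIPI genes rose as well. The gene atg-18 was at 4596, 7721 and 6172 with food and 9096, 9594 and 9501 without food in control larvae, and at 5409.6, 5369 and 3527 against 12648, 9554 and 7931 in F4+3 larvae. It rose by 0.64 ± 0.20 (adjusted p = 0.016) and 1.08 ± 0.20 (adjusted p = 0.0004), with no overlap across the 12 libraries. The second WIPI gene, epg-6, was at 1490, 1592 and 1398 against 2106, 1958 and 2064 in control and at 1283, 1372 and 1096 against 2001, 1977 and 1985 in F4+3 larvae. It rose by 0.45 ± 0.10 (adjusted p = 0.0019) and 0.67 ± 0.10 (adjusted p = 6.3e-05), again with no overlap.

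Of the endoplasmic reticulum membrane proteins needed for autophagosome maturation, epg-4 and epg-3 went in opposite directions. The gene epg-4 was at 410.0, 501 and 395 with food and 565, 507 and 607 without food in control larvae, and at 391, 399.9 and 298 against 697, 633 and 638 in F4+3 larvae. It rose by 0.37 ± 0.14 (adjusted p = 0.043) and 0.86 ± 0.14 (adjusted p = 0.00013). By contrast epg-3, the VMP1 orthologue, was at 2904, 2605 and 2369 with food and 1914, 1713 and 1896 without food in control larvae, and at 2673, 2521 and 2481 against 1654, 1724 and 1747 in F4+3 larvae. It fell by 0.51 ± 0.10 (adjusted p = 0.00057) and by 0.58 ± 0.10 (adjusted p = 0.00018), and each unfed library was below each fed library.

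The conjugation genes, which serve the linking of LGG-3 to ATG-5 and of LGG-1 to lipid, moved in both directions. In control larvae 1 of 9 was higher and 2 of 9 were lower, and in F4+3 larvae 3 were higher and 1 was lower. The gene atg-5 was at 2116, 2183 and 2890.1 with food and at 918, 1065 and 1108 without food in control larvae, and at 2304, 2821 and 2705 against 1676, 1221 and 1040 in F4+3 larvae. It fell by 1.21 ± 0.17 (adjusted p = 2.3e-05) and by 1.01 ± 0.17 (adjusted p = 0.00012), with no overlap. The ubiquitin-like gene lgg-3, whose product is joined to ATG-5, was at 716, 735 and 727 against 477, 661 and 563 in control larvae and fell by 0.37 ± 0.16 (adjusted p = 0.065). In F4+3 larvae its values of 679.6, 734 and 829 overlapped those of 724, 721 and 491, and the log2 fold change of −0.23 ± 0.16 did not pass.

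The paralogues atg-16.1 and atg-16.2 both code for the protein that holds the ATG-5 complex at the membrane. The gene atg-16.2 was at 668, 682 and 555 with food and 1079, 964 and 955 without food in control larvae, and at 595, 620.0 and 422 against 802, 961 and 1045 in F4+3 larvae. It rose by 0.66 ± 0.15 (adjusted p = 0.0023) and 0.79 ± 0.15 (adjusted p = 0.00053), with no overlap. For atg-16.1 the control values of 572, 706 and 480.2 with food and 685, 579.8 and 651 without food overlapped, with a log2 fold change of 0.14 ± 0.14. In F4+3 larvae its values of 464, 505 and 435 lay below those of 617, 644 and 573, and it rose by 0.39 ± 0.14 (adjusted p = 0.031). The ratio of atg-16.1 to atg-16.2 within a library was 0.919 ± 0.0999 in fed and 0.64 ± 0.0405 in unfed control larvae (SD, n = 3), and 0.875 ± 0.135 against 0.663 ± 0.11 in F4+3 larvae. The ratio was lower without food by 0.46 on the log2 scale (exact permutation test within lines, two-sided, p = 0.005, the smallest the 400 arrangements allow, and 0.01 adjusted over 4 ratios).

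Among the other conjugation genes, atg-3 codes for the enzyme that passes LGG-1 to lipid. The gene atg-3 was at 624, 585 and 516 in fed and 926, 863 and 759.7 in unfed F4+3 larvae and rose by 0.56 ± 0.15 (adjusted p = 0.0059). In control larvae its fed values of 903, 754 and 580.4 overlapped the unfed values of 742, 874 and 774. The activating enzyme gene atg-7 and the protease genes atg-4.1 and atg-4.2 did not pass in either line, with log2 fold changes between −0.11 and 0.17. The ratio of atg-4.1 to atg-4.2 moved by 0.14 on the log2 scale (exact permutation test, two-sided, p = 0.195, adjusted p = 0.25). For atg-10 the counts were too low for a statement on larvae: the 12 values lay between 0 and 23.0, and the unfed F4+3 replicate 1 was at 0.

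Both ATG8 genes were higher without food in F4+3 larvae, and lgg-1 in control larvae as well. The GABARAP-like gene lgg-1 was at 16880, 20096 and 18008 with food and 25732, 27998 and 23753 without food in control larvae, and at 14246, 15508 and 13069 against 26993, 26771 and 23238 in F4+3 larvae. No unfed value reached down to a fed one, and the rise was 0.50 ± 0.11 (adjusted p = 0.0021) in control and 0.85 ± 0.11 (adjusted p = 1.9e-05) in F4+3 larvae. The LC3-like gene lgg-2 was at 13253, 17398 and 20376 against 18258, 22228 and 21258 in control larvae, with overlap and a log2 fold change of 0.29 ± 0.19 (adjusted p = 0.22). In F4+3 larvae it was at 12315, 16808 and 11628 against 28434, 23430 and 17067 and rose by 0.75 ± 0.19 (adjusted p = 0.0049). The ratio of lgg-1 to lgg-2 moved by 0.15 on the log2 scale (exact permutation test, two-sided, p = 0.25, also 0.25 adjusted).

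The cargo adaptors rose in both lines. The gene epg-2, for a nematode adaptor that brings germ granule proteins to LGG-1 in embryos, was at 1119.7, 1063 and 1064 with food and 1745, 2074 and 1864 without food in control larvae, and at 1074, 1232 and 995 against 1734, 2059.6 and 1961 in F4+3 larvae. The rise was 0.80 ± 0.11 in both (adjusted p = 2.6e-05 in each). The receptor gene sqst-1 was at 20010, 19701 and 20008 against 21695, 27012 and 25859 in control and at 16780, 18989 and 17247 against 28547, 25188 and 23452 in F4+3 larvae. It rose by 0.31 ± 0.11 (adjusted p = 0.032) and 0.54 ± 0.11 (adjusted p = 0.001). For epg-2 and sqst-1 all unfed libraries were above all fed ones.

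Of the late-step genes, the tether gene epg-5, which gives fusion with the lysosome its specificity, was at 2651, 2811 and 2489 with food and 3851, 3182 and 3863 without food in control larvae, and at 2484, 2392 and 2059 against 3128, 3122 and 3766 in F4+3 larvae. It rose by 0.45 ± 0.12 (adjusted p = 0.0048) and 0.53 ± 0.12 (adjusted p = 0.0015), with no overlap. The late endosome GTPase gene rab-7 was at 7445, 8595 and 7218 with food and at 14873, 10716 and 7976 without food in F4+3 larvae, with overlap and a rise of 0.49 ± 0.18 (adjusted p = 0.033). That call rests on the unfed replicate 1, which is the shallowest library of its group: without it the log2 fold change was 0.26 (adjusted p = 0.18). In control larvae rab-7 went from 7409, 9208 and 9495 to 8619.7, 10430 and 9839, and the change of 0.15 ± 0.18 did not pass.

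The transcription factor genes moved apart. HLH-30, the TFEB orthologue, turns on autophagy and lysosome genes, and MXL-3 represses lysosomal lipase genes in fed animals. The gene hlh-30 was at 22898, 22634 and 27770 with food and 28543, 28713 and 32667 without food in control larvae, and at 22758, 27162 and 26446 against 34932, 29906 and 28751 in F4+3 larvae. It rose by 0.30 ± 0.12 (adjusted p = 0.057) and by 0.29 ± 0.12 (adjusted p = 0.062). The repressor gene mxl-3 was at 8747, 7830 and 11020 with food and 3666, 2010.2 and 2866 without food in control larvae, and at 9414, 12150 and 10704 against 8426, 3113 and 4284 in F4+3 larvae. It fell by 1.72 ± 0.28 (adjusted p = 0.00013) and by 1.15 ± 0.28 (adjusted p = 0.0034), without overlap within a line. In F4+3 larvae the fall was 1.55 without the unfed replicate 1 (log2 fold change −1.55).

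The ratio of hlh-30 to mxl-3 within a library combined these changes. It was 2.62, 2.89 and 2.52 in fed and 7.78, 14.3 and 11.4 in unfed control larvae, and 2.42, 2.24 and 2.47 against 4.15, 9.6 and 6.71 in F4+3 larvae. Every unfed library exceeded every fed library. The ratio was 3.32-fold higher without food (exact permutation test within lines, two-sided, p = 0.005, the smallest possible, and 0.01 adjusted).

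Several calls rested on single libraries. In control larvae the count of 19 became 13 without unfed replicate 3 (atg-13, epg-4, epg-7, hlh-30, lgg-3 and sqst-1 lost) and 14 without fed replicate 3 (atg-13, epg-4, epg-7, lgg-3 and vps-34 lost). Without fed replicate 1 the calls of atg-13, epg-4 and hlh-30 were lost, without fed replicate 2 those of hlh-30, lgg-3 and vps-34, without unfed replicate 1 those of atg-13, epg-7, lgg-3 and vps-34, and without unfed replicate 2 those of atg-13 and sqst-1. In F4+3 larvae the count stayed between 22 and 24, with hlh-30, rab-7, atg-16.1 and vps-34 lost without at least 1 library.

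Markers of tissues also differed between fed and unfed larvae. All 3 tested hypodermal collagen markers were lower without food, and their summed level ran from 1236 to 3002 in fed and from 58.3 to 158 in unfed control larvae. The summed intestinal markers ran from 128960 to 165510 with food and from 78420 to 80618 without, with 3 of 6 genes higher and 3 lower. Of 8 neuronal markers, 5 were higher and 1 lower in control larvae, with sums of 77051 to 86794 with food and 99240 to 106580 without. The part of these shifts, and of the different hour of collection, in the autophagy values was not tested.

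Other genes of the pathway moved in both directions. The counts below stand against 27.6% of all tested genes that rose and 30.5% that fell in control larvae. In F4+3 larvae these shares were 27.1% and 30.4%. Of 7 receptors and kinases of selective autophagy, 3 rose and 1 fell without food in control larvae and 3 rose and 2 fell in F4+3 larvae. Among them the mitophagy receptor gene dct-1 went from 2310.4 ± 508 to 4486 ± 387 (SD, n = 3) in control and from 1289 ± 351 to 3959 ± 590.1 in F4+3 larvae, a rise of 0.98 ± 0.20 and 1.65 ± 0.20 (adjusted p = 0.00074 and 5.9e-06). Of 9 genes upstream in TOR and AMPK signalling, 2 rose and 2 fell in control and 4 rose and 3 fell in F4+3 larvae. The AMPK subunit gene aak-1 rose from 392 ± 56.9 to 794 ± 14.8 in F4+3 larvae (1.03 ± 0.13, adjusted p = 6.8e-06). The kinase gene par-4 was lower without food in both lines. Its log2 fold change was −0.77 ± 0.11 in control and −0.72 ± 0.11 in F4+3 larvae (limma, adjusted p = 3.5e-05 and 6.4e-05). Of 15 genes of the fusion machinery, 1 rose and 5 fell in control and 3 rose and 4 fell in F4+3 larvae. Of 5 enzymes that act on phosphatidylinositol 3-phosphate, the phosphatase gene mtm-3 rose in both lines, by 0.51 ± 0.13 (adjusted p = 0.0041) and 0.82 ± 0.13 (adjusted p = 9.3e-05), and no other passed.

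The question of a lasting mark of ancestral starvation was put to the same 12 libraries by comparing F4+3 with control larvae at the same food state. With food, the members leaned downwards and none passed the test. The log2 fold change was below 0 for 24 of 31 members, or 77.4%, against 47.4% of all tested genes, and the median was −0.26 against 0.01. In 12 of 31 members all F4+3 values lay below all control values, against 6.03% of all genes. By limma 0 of 31 passed at adjusted p under 0.1, where 0.0126% of all genes passed, and the smallest adjusted p of a member was 0.17. At an unadjusted p under 0.05 there were 11 members, among 1366 of 15902 tested genes. edgeR on reads recovered from the values called 0 members. DESeq2 called 4 members, all lower, where it called 1.27% of all tested genes lower, 157 of 12393, and 50 higher. In limma with a replicate block 1 member passed, atg-2, which was lower (adjusted p = 0.0766). Of all 15902 tested genes that fit called 6 higher and 46 lower, against 0 and 2 without the block.

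**Figure D3:**
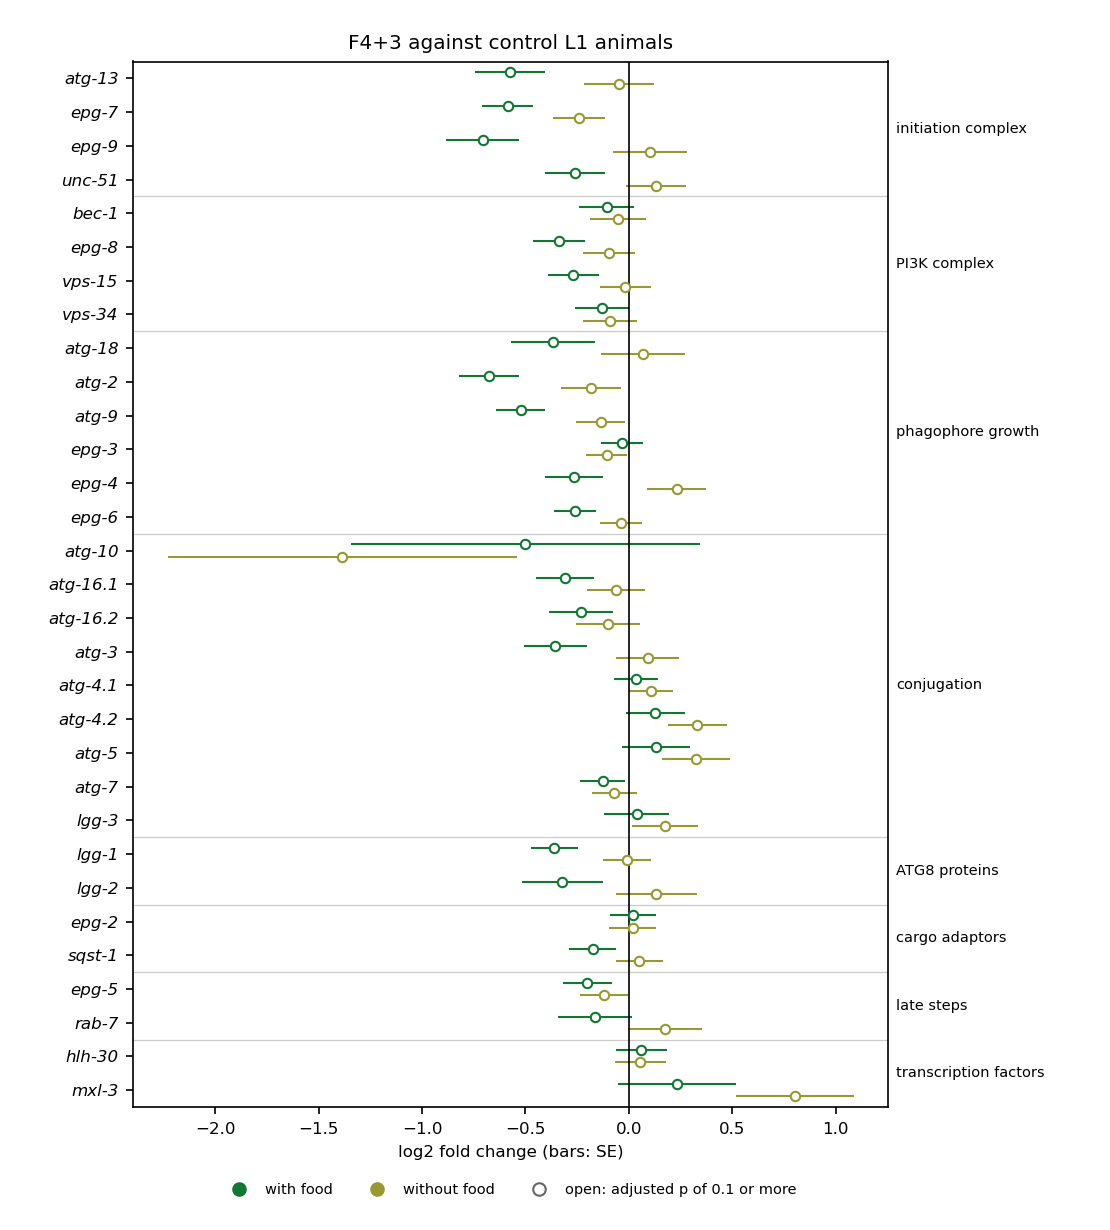
Log2 fold change of each autophagy gene in F4+3 against control L1 (x axis, bars are SE, n = 3 libraries per group), with food (green) and without food (olive), with genes grouped by role. All points are open, since no gene passed the adjusted p threshold of 0.1, and with food 24 of 31 lie to the left of 0.

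The genes called by DESeq2 were atg-2, atg-9, epg-7 and epg-9. In the limma fit atg-2 differed by −0.68 ± 0.14 (adjusted p = 0.17), with fed values of 10818, 12572 and 9171 in control and 7509, 7649 and 5327 in F4+3 larvae. Its adjusted p ranged from 0.0054 to 0.61 over 19 alternative settings. The log2 fold change was −0.52 ± 0.12 for atg-9, −0.59 ± 0.12 for epg-7 and −0.71 ± 0.18 for epg-9, with adjusted p between 0.17 and 0.20. For these 4 genes the fed F4+3 values did not overlap the fed control values. Without fed control replicate 3, 3 of them passed in limma, namely atg-2, atg-9 and epg-7. In that setting 45 of all 15937 tested genes were higher and 83 lower, against 0 and 2 in the main fit. Replicate 3 of the fed F4+3 larvae held the lowest value of its group in 20 of 31 members.

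The other members given in every comparison did not pass either. The log2 fold change with food was −0.36 ± 0.11 for lgg-1 (adjusted p = 0.32), −0.32 ± 0.19 for lgg-2, −0.26 ± 0.14 for unc-51, −0.37 ± 0.20 for atg-18 and −0.17 ± 0.11 for sqst-1. It was −0.11 ± 0.13 for bec-1, 0.06 ± 0.12 for hlh-30 and 0.23 ± 0.28 for mxl-3.

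Without food no such lean was seen. The log2 fold change was below 0 for 51.6% of members and 47.7% of all genes, the median was −0.01, and by limma 0 members and 0% of all genes passed. At an unadjusted p under 0.05 there were 2 members, among 811 of 15902 tested genes. Both edgeR and DESeq2 called 0 members, where DESeq2 called 39 genes higher and 11 lower of 12393. Apart from the low-count atg-10, the largest difference was that of mxl-3, at 0.80 ± 0.28 (adjusted p = 0.84), where the unfed F4+3 replicate 1 stood apart at 8426.

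The interaction of ancestry and food is the log2 change without food in F4+3 minus that in control larvae. It was above 0 for 27 of 31 members, with a median of 0.24 against 0.00 for all genes. It was below 0 for 12.9% of members and 49.1% of all genes. It holds the same fed libraries as the comparison with food above, so it is not independent of the lean seen there. For mxl-3, atg-5 and lgg-3, whose changes were below 0 in both lines, a value above 0 means a change of smaller size in F4+3 larvae. The interaction passed the test for 0 members and 0% of all genes by limma, and edgeR and DESeq2 called 0 members. At an unadjusted p under 0.05 there were 6 members, among 636 of 15902 tested genes. For epg-9 the interaction was 0.81 ± 0.25, for atg-2 0.49 ± 0.20 and for lgg-1 0.35 ± 0.16, with an adjusted p of 1 for each. Whether the response to food differs between the lines was not resolved for any member.

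In adults the autophagy genes differed mainly with sterility. Sterile F4 adults had 21 of 31 members lower and 3 higher than control adults, against 41.8% of 13413 tested genes lower and 41.3% higher (limma, adjusted p under 0.05). The median log2 fold change of the members was −0.82 and that of all genes 0.14. Fertile F4 adults had 8 members lower and 1 higher than control adults, against 12% and 9.86% of all genes, with medians of −0.20 and −0.11. Between sterile and fertile F4 adults, 21 members were lower and 2 higher in sterile animals, against 39.6% and 38.8% of all genes. Comparisons with control adults share the same control libraries.

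**Figure D4:**
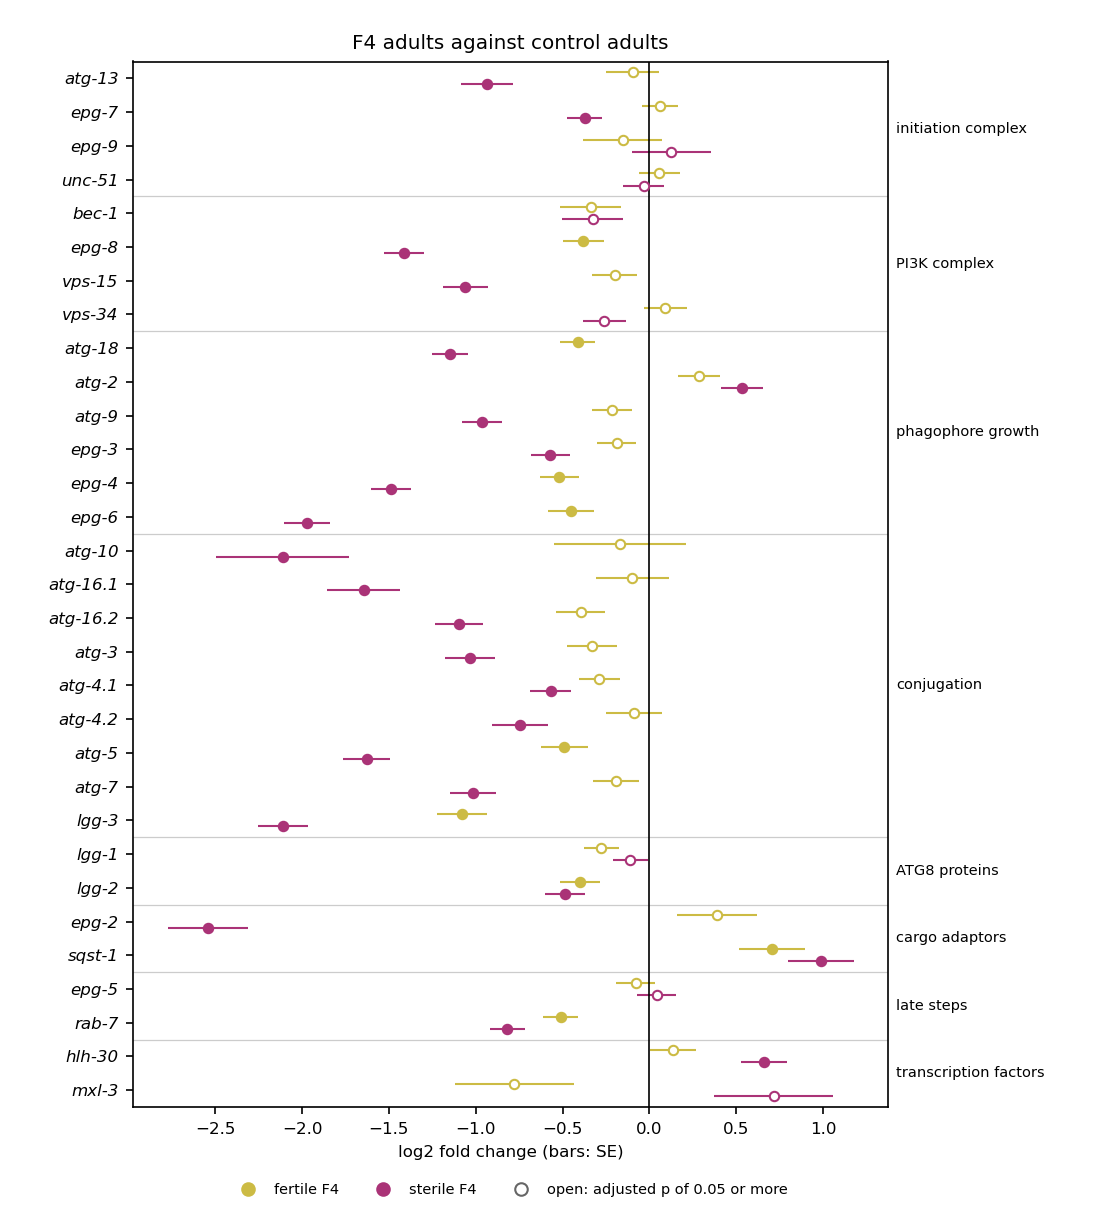
Log2 fold change of each autophagy gene against control adults (x axis, bars are SE, n = 3 libraries per group), in fertile F4 (yellow) and sterile F4 adults (purple), with genes grouped by role. Filled points passed the adjusted p threshold of 0.05: 8 genes lie to the left and 1 to the right in fertile adults, and 21 and 3 in sterile adults.

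Transcript levels of tissue markers in the sterile animals differed from those in the others. All 14 oocyte and embryo markers were lower in sterile than in control adults, with a summed level of 185590 to 218010 in control, 118060 to 149960 in fertile and 17211 to 39751 in sterile adults. All 4 germ granule markers were lower too, with sums of 20214 to 22613 in control, 13030 to 17689 in fertile and 5855 to 9387 in sterile adults. Conversely all 32 tested sperm markers, whose near-identical msp copies may share reads, were higher, with sums of 151 to 480.4 in control, 425 to 1527 in fertile and 15221 to 19647 in sterile adults. All 6 yolk genes, all 5 muscle markers and 7 of 8 neuronal markers were higher as well. None of the oocyte, germ granule, yolk, muscle or neuronal markers was at 0 in all libraries of a group, and 1 of 35 listed sperm markers was at 0 in the control libraries. In whole worms fewer cells of a type and less RNA per cell cannot be told apart, and the part of these shifts in the autophagy values was not tested.

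The scaling also mattered. With TMM scaling the median of all genes moved from −0.11 to 0.04 in fertile against control adults, and from 0.14 to 0.33 in sterile against control adults. The split of all genes in fertile adults went from 1323 higher and 1613 lower to 1817 higher and 764 lower. In sterile adults it went from 5537 higher and 5602 lower to 6024 higher and 5301 lower. The fertile members then had 2 higher and 4 lower, and the sterile members 5 higher and 20 lower.

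The conjugation genes were lower throughout in sterile adults, with 9 of 9 lower than control and 9 of 9 lower than fertile adults. The call of atg-4.1 against fertile adults was narrow, as given below. The gene lgg-3 was at 730.5, 699 and 651 in control, 383, 309.7 and 297 in fertile and 146, 175 and 159 in sterile adults. The 3 groups did not overlap, and lgg-3 fell by 1.08 ± 0.14 in fertile (adjusted p = 0.0015) and by 2.11 ± 0.14 in sterile adults (adjusted p = 2.9e-07). Its partner atg-5 was at 575, 505 and 519.6 in control, 342, 384 and 413 in fertile and 170.0, 160.3 and 185 in sterile adults. It fell by 0.49 ± 0.14 (adjusted p = 0.027) and by 1.63 ± 0.14 (adjusted p = 6.8e-07), again in 3 separate groups. The fertile call of atg-5 missed the threshold in 7 of 16 alternative settings, with adjusted p between 0.0069 and 0.12.

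The gene atg-10, for the enzyme that conjugates LGG-3, was at 33.7, 22.0 and 35.3 in control, 31.9, 23.7 and 24.1 in fertile and 3.98, 7.94 and 7.07 in sterile adults. Sterile values were below all others and atg-10 fell by 2.11 ± 0.38 against control (adjusted p = 0.00027), while control and fertile values overlapped. With sterile values of at most 7.94, the size of this fall rests on few reads. The log2 fold change ran from −2.32 to −1.855 over 16 alternative settings. The paralogue atg-16.1 was at 343, 318 and 330.1 in control, 343, 294 and 291 in fertile and 75.7, 146 and 104.2 in sterile adults, and fell by 1.65 ± 0.21 in the latter (adjusted p = 1.6e-05). Its counterpart atg-16.2 was at 513, 469 and 449 in control, 393, 343 and 352 in fertile and 197, 221 and 253 in sterile adults. It fell by 1.10 ± 0.14 in sterile adults (adjusted p = 1.5e-05), and the fertile value of −0.40 ± 0.14 did not pass (adjusted p = 0.062) although the groups were separate.

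The enzymes that lipidate the ATG8 proteins fell too. The gene atg-3 was at 503, 488 and 478 in control, 369, 418 and 383 in fertile and 218, 217 and 288 in sterile adults, a fall of 1.03 ± 0.14 in sterile adults. The gene atg-7 was at 1321, 1206 and 1203 in control, 941, 1100.3 and 1242 in fertile and 538, 639.6 and 669 in sterile adults, a fall of 1.02 ± 0.13. Both had adjusted p of at most 3.0e-05 and sterile values below all others.

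The protease gene atg-4.1 was at 614, 596 and 548 in control, 519, 468 and 454 in fertile and 377, 419 and 388 in sterile adults and fell by 0.57 ± 0.12 in sterile against control adults (adjusted p = 0.00082). Its log2 fold change of −0.28 ± 0.12 between sterile and fertile adults passed narrowly (adjusted p = 0.048) and missed the threshold in 14 of 16 alternative settings, with adjusted p between 0.0416 and 0.134. The protease gene atg-4.2 was at 302, 257 and 254 in control, 245, 238 and 283 in fertile and 137, 171 and 178 in sterile adults. It fell by 0.75 ± 0.16 against control (adjusted p = 0.00098), with sterile values apart from both other groups.

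In phagophore growth 5 of 6 genes fell in sterile adults and atg-2 rose. The gene epg-6 was at 1410.3, 1252 and 1276 in control, 885, 921 and 1077 in fertile and 295, 324 and 388 in sterile adults. The 3 groups were separate, and epg-6 fell by 0.45 ± 0.13 in fertile (adjusted p = 0.034) and by 1.97 ± 0.13 in sterile adults (adjusted p = 2.9e-07). The other WIPI gene, atg-18, was at 2789.8, 2508 and 2442 in control, 1873, 1965 and 1962 in fertile and 1073, 1235 and 1184 in sterile adults. It fell by 0.41 ± 0.10 (adjusted p = 0.018) and by 1.15 ± 0.10 (adjusted p = 1.1e-06), also without overlap. The fertile call of epg-6 was lost in 7 of 16 alternative settings and that of atg-18 in 2, with adjusted p up to 0.14 and 0.089.

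The gene epg-4 was at 1176, 1126 and 1103 in control, 845, 823 and 713 in fertile and 396, 427 and 389 in sterile adults. It fell by 0.52 ± 0.11 in fertile (adjusted p = 0.011) and by 1.49 ± 0.11 in sterile adults (adjusted p = 4.4e-07), and its groups did not overlap. The gene atg-9 was at 2851, 2634 and 2617 in control, 2152, 2335 and 2511 in fertile and 1199.5, 1482 and 1480.2 in sterile adults and fell by 0.97 ± 0.12 in the latter (adjusted p = 8.7e-06). For epg-3 the values were 1084, 1014 and 966 in control, 823, 898 and 968 in fertile and 649.5, 671 and 742 in sterile adults, a fall of 0.57 ± 0.11 (adjusted p = 0.00055). Sterile values of both genes were below all others. By contrast atg-2 was at 2902, 2856 and 3341 in control, 3560.3, 3398 and 4131 in fertile and 3929, 4317 and 4942 in sterile adults. It rose by 0.53 ± 0.12 in sterile adults (adjusted p = 0.0015), where all values exceeded the control values, and the fertile value of 0.28 ± 0.12 did not pass (adjusted p = 0.11).

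**Figure D5:**
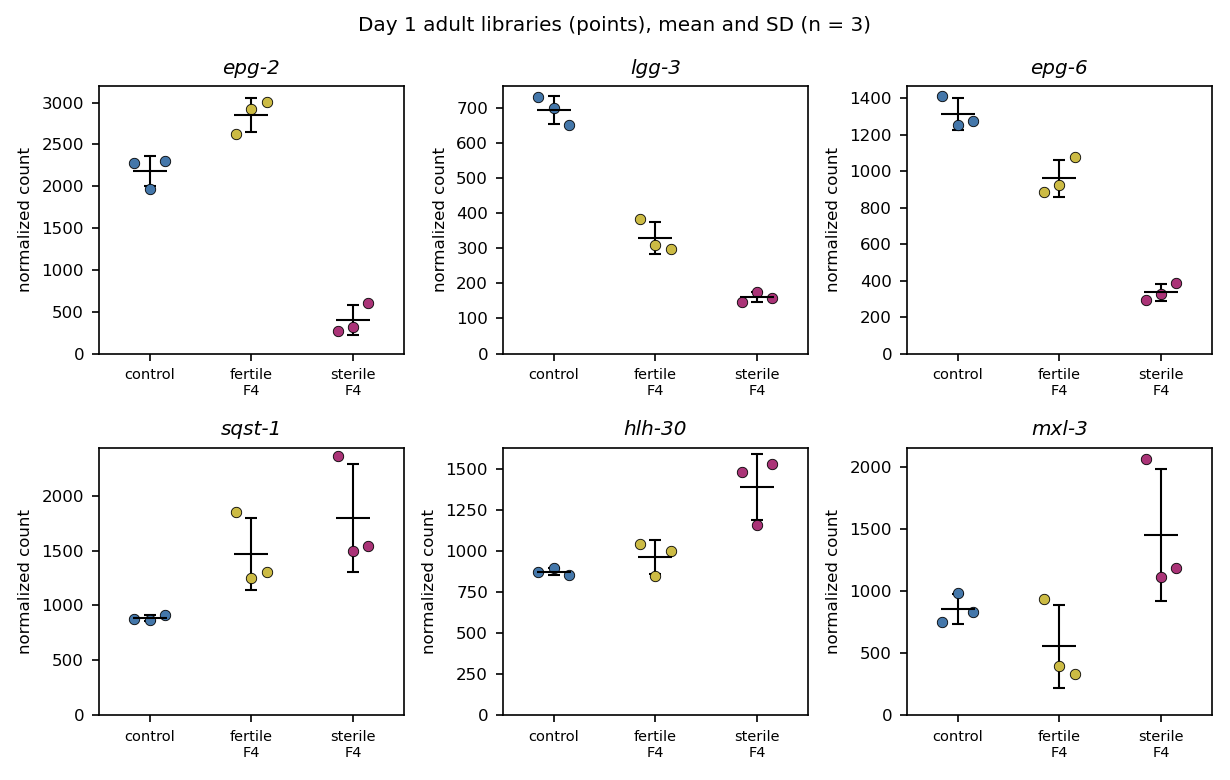
Normalized counts (y axis, linear from 0) of 6 autophagy genes in the 9 adult libraries (points), with the mean and SD of each group (black, n = 3). The genes epg-2, lgg-3 and epg-6 are lowest in the sterile adults, hlh-30 and mxl-3 are highest there, and for sqst-1 and mxl-3 replicate 1 of the fertile adults, at 1849.8 and 940.0, stands above its group.

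In the lipid kinase complex epg-8 and vps-15 fell in sterile adults. The gene epg-8 was at 1184, 1122 and 997 in control, 859, 817 and 856 in fertile and 379, 439.6 and 418 in sterile adults. It fell by 0.38 ± 0.12 in fertile (adjusted p = 0.038) and by 1.42 ± 0.12 in sterile adults (adjusted p = 6.2e-07), and the fertile call was lost in 9 of 16 alternative settings, with adjusted p between 0.011 and 0.16. The gene vps-15 was at 2657, 2415 and 2266 in control, 1894, 2204 and 2299 in fertile and 994, 1311 and 1228 in sterile adults and fell by 1.06 ± 0.13 in the latter (adjusted p = 1.1e-05). The lipid kinase gene vps-34 itself was at 1229, 1093 and 1128 in control, 1047, 1245 and 1405 in fertile and 915, 992 and 972 in sterile adults. It was lower in sterile than in fertile adults by 0.35 ± 0.12 (log2 fold change −0.35, adjusted p = 0.021), and the value of −0.26 ± 0.12 against control did not pass. The Beclin gene bec-1 was at 739.8, 761 and 712 in control, 672, 608 and 486 in fertile and 711, 635 and 450.4 in sterile adults. Its log2 fold changes of −0.34 ± 0.18 and −0.33 ± 0.18 did not pass (adjusted p = 0.17 and 0.10).

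The initiation complex was split. The gene atg-13 was at 794, 783 and 769 in control, 689, 728 and 778 in fertile and 321, 432 and 491 in sterile adults and fell by 0.93 ± 0.15 in sterile adults (adjusted p = 0.0001). The gene epg-7 was at 1343, 1299 and 1345 in control, 1272, 1396 and 1497 in fertile and 1055, 986 and 1038 in sterile adults, a fall of 0.37 ± 0.10 (adjusted p = 0.005) that was lost with TMM scaling (adjusted p up to 0.12). Neither the kinase gene unc-51 nor epg-9 passed in any adult comparison. Values of unc-51 were 941, 950.1 and 958 in control, 1075, 868 and 1036 in fertile and 911, 869.8 and 1009 in sterile adults, overlapping throughout. The log2 fold change of unc-51 in sterile adults was −0.03 ± 0.12 and changed sign with TMM scaling, to 0.16.

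The ATG8 genes differed by at most 0.49 on the log2 scale in size. The gene lgg-1 was at 2984, 2969 and 3062 in control, 2738, 2361 and 2356 in fertile and 2837, 2621 and 2904 in sterile adults. All values of both F4 groups were below the control values, but the log2 fold changes of −0.28 ± 0.10 and −0.11 ± 0.10 did not pass (adjusted p = 0.066 and 0.32), and the sterile one changed sign with TMM scaling, to 0.09. The gene lgg-2 was at 1516, 1400.1 and 1410.3 in control, 1242, 1047 and 1002 in fertile and 983, 979 and 1131 in sterile adults. It fell by 0.40 ± 0.12 in fertile (adjusted p = 0.033, lost in 7 of 16 alternative settings, up to 0.14) and by 0.49 ± 0.12 in sterile adults (adjusted p = 0.0022). Between sterile and fertile adults neither gene passed, at 0.17 ± 0.10 for lgg-1 and −0.09 ± 0.12 for lgg-2.

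The cargo adaptors moved in opposite directions. The gene epg-2 was at 2273, 1969 and 2298 in control, 2624, 2927 and 3008 in fertile and 271, 316 and 602 in sterile adults. It had the lowest log2 fold changes of all members in sterile adults in the limma fit, at −2.54 ± 0.23 against control (adjusted p = 1.2e-06) and −2.93 ± 0.23 against fertile adults (adjusted p = 3.5e-06). Fertile values were all above control values, and the difference of 0.39 ± 0.23 did not pass (adjusted p = 0.23). The receptor gene sqst-1 was at 872, 869.8 and 916 in control, 1849.8, 1250.3 and 1306 in fertile and 2366, 1494 and 1539 in sterile adults. All F4 values exceeded the control values, and sqst-1 rose by 0.71 ± 0.19 in fertile (adjusted p = 0.023) and by 0.99 ± 0.19 in sterile adults (adjusted p = 0.00038). It was the only member that rose in both F4 groups in the limma fit, and with TMM scaling atg-2 did so too. Replicate 1 was the highest in both F4 groups, and without the fertile replicate 1 the fertile change was 0.53 (adjusted p = 0.078). The call was also lost without any of the control replicates.

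Of the late-step genes, rab-7 was at 1726, 1656 and 1534 in control, 1168, 1144 and 1136 in fertile and 909.9, 895 and 978 in sterile adults. The groups were separate, and rab-7 fell by 0.51 ± 0.10 in fertile (adjusted p = 0.0068) and by 0.82 ± 0.10 in sterile adults (adjusted p = 1.1e-05). The fertile call of rab-7 held in all 16 alternative settings, as did that of lgg-3. The tether gene epg-5 was at 1274, 1327 and 1109 in control, 1142, 1139 and 1224 in fertile and 1263, 1368 and 1184 in sterile adults, with overlap and no call in the limma fit.

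The transcription factor genes were the only role in which both members were higher in sterile than in fertile adults. The gene hlh-30 was at 872, 899 and 854 in control, 1047, 848 and 1004 in fertile and 1485, 1163 and 1536 in sterile adults. It rose by 0.66 ± 0.13 against control (adjusted p = 0.00056) and 0.52 ± 0.13 against fertile adults (adjusted p = 0.0033), with sterile values above all others. The gene mxl-3 was at 750.1, 988 and 829 in control, 940.0, 394 and 328 in fertile and 2067, 1111 and 1187 in sterile adults. It rose by 1.49 ± 0.34 against fertile adults (adjusted p = 0.0017), and the log2 fold change against control of 0.72 ± 0.34 did not pass (adjusted p = 0.069) although the groups were separate. In fertile against control adults it was −0.78 ± 0.34 (adjusted p = 0.11), and without fertile replicate 1 it was −1.24 (adjusted p = 0.01).

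For adults the ratios of paralogues could not reach significance, since the smallest p of an exact permutation test of 3 against 3 libraries is 0.1. The ratio of lgg-1 to lgg-2 was 2.09 ± 0.106 in control, 2.27 ± 0.0751 in fertile and 2.71 ± 0.162 in sterile adults (SD, n = 3), with p = 0.1 for each pair of groups (exact, two-sided). The ratio of atg-16.1 to atg-16.2 was 0.694 ± 0.0361, 0.853 ± 0.0235 and 0.489 ± 0.152 in the same order, also with p = 0.1 for each pair (exact, two-sided). The ratio of hlh-30 to mxl-3 was 1.03 ± 0.126, 2.11 ± 0.972 and 1.02 ± 0.288, and no pair reached 0.1.

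Fertile and sterile F4 libraries of the same replicate number deviated together, so the fit with the replicate number as a block was also made. It gave 20 lower and 3 higher members in sterile against fertile adults, with atg-4.1 lost and atg-2 gained. Of all 13413 tested genes the block called 5318 lower and 5234 higher there. Per the study's methods the control adults were collected at the same time as the F4 adults, but their same-numbered libraries did not deviate together. Against control adults the block gave 7 lower and 1 higher members in fertile adults, with epg-8 lost (adjusted p = 0.0547), and 22 lower and 4 higher in sterile adults, with bec-1 (adjusted p = 0.0488) and mxl-3 (adjusted p = 0.0261) gained. Of all 13413 tested genes it called 1639 lower and 1346 higher in fertile, and 5620 lower and 5567 higher in sterile adults. The call of vps-34 between sterile and fertile adults was lost without fertile replicate 2 or 3. The member counts of fertile against control adults depended on single libraries: 2 members passed without control replicate 1, 3 without control replicate 2, 4 without control replicate 3, 5 without fertile replicate 2 and 13 without sterile replicate 1. Calls over all genes moved too. They were 609 higher and 366 lower of 13486 without control replicate 1. Without sterile replicate 1 they were 1700 higher and 3180 lower of 13266. The main fit gave 1323 and 1613 of 13413. The member counts of sterile against control adults stayed between 24 and 26 when any library was left out.

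Of the other pathway lists, those upstream of lysosomal breakdown mostly fell with the members in sterile adults. Of all tested genes, 41.8% were lower and 41.3% higher than in control adults. The lists of the lysosome, its lipases and the V-ATPase, in which more genes rose than fell, are given further on. All 5 listed genes of selective autophagy were lower than in control adults, among them ikke-1 and the Parkin gene pdr-1, which fell by 1.35 ± 0.11 and by 1.45 ± 0.12 (adjusted p = 5.9e-07 and 8.3e-07). Of 15 fusion machinery genes, 11 fell and 1 rose, and the tethering subunit gene vps-39 went from 3571 ± 285 to 1091 ± 130.3 (SD, n = 3), a fall of 1.71 ± 0.13 (adjusted p = 4.2e-07). Of 9 TOR and AMPK genes, 8 fell and 1 rose, including the kinase gene par-4, which fell by 1.76 ± 0.14 (adjusted p = 5.5e-07), and the Raptor gene daf-15, which fell by 1.42 ± 0.13 (adjusted p = 1.4e-06). Of 5 enzymes of phosphatidylinositol 3-phosphate 3 fell. In fertile adults 1 of 9 TOR and AMPK genes, 2 of 5 of selective autophagy, 4 of 15 of fusion and 0 of 5 enzymes were lower. None of the genes of these 4 lists was higher. Of all tested genes, 12% were lower and 9.86% higher in fertile than in control adults.

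The larval and adult experiments had no library in common. Of the 15 members that rose without food in control larvae, 9 were lower and 3 higher in sterile than in control adults. Of all 31 members, 21 were lower and 3 higher in that adult comparison, against 41.8% and 41.3% of all tested genes. The thresholds were an adjusted p under 0.1 in larvae and under 0.05 in adults (limma). The 3 that rose in both were atg-2, sqst-1 and hlh-30. Of the 4 that fell without food in control larvae, atg-5, epg-3 and lgg-3 were also lower in sterile adults, and mxl-3 was not.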

How the data were processed

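RNA-seq of whole C. elegans was measured in 21 libraries of 7 groups. Per the study's methods, RNA libraries (NuGEN Ovation Universal) were sequenced as single-end reads of 75 bases, mapped to WS220 with Subread, counted with featureCounts and normalized with DESeq2 by the authors; versions and strand settings are not given in the sources used here. The deposited values are such normalized counts, handled as a signal and, for 7 adult columns with negative cells in damaged rows, as a score in the deposited table. Those 3 of 17723 adult rows and 1 of 23185 larval rows were left out. Columns of the authors' own fold changes and p-values were not used. Where the values were whole multiples of the worth of 1 read (tolerance 0.1), which held for 100% of values in every library, reads were recovered for depth and count tests, and edgeR on them called 6127 genes higher and 5250 lower in sterile against control adults, against 5537 and 5602 by limma.

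The test was limma 3.58.1 (R 4.3.3) with a mean-variance trend on log2(normalized count + 1), so fold changes of low genes are understated. All groups of an experiment entered 1 fit, genes with a mean of at least 10 were kept, and p-values were adjusted by Benjamini-Hochberg over all of them (threshold 0.1 in larvae, 0.05 in adults). Ratios were tested by exact permutation. Alternatives were no filter, a pseudocount of 0.5, TMM scaling, edgeR 4.0.16 and DESeq2 1.42.0 on recovered reads, a replicate block, the compared groups alone, and each library left out. Scripts were tested on simulated data. Same-numbered fertile and sterile F4 libraries, which share plates, correlated in their deviations (r between 0.175 and 0.384). Smaller values, also above 0 throughout, were found for fed with unfed control larvae (0.0525 to 0.154). The same held for fed F4+3 with unfed control larvae (0.00628 to 0.174) and for fed control with fed F4+3 larvae (0.0111 to 0.0987). In every other pair of groups at least 1 same-numbered r was below 0. The methods state that control and ancestrally starved material was collected together, and not that a replicate number marks a shared collection. No replicate pair agreed within sampling noise (lowest chi-square per gene 6.47).

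Members with a call, and lgg-1, lgg-2, unc-51, bec-1, atg-18, sqst-1, hlh-30 and mxl-3 always, are given per library; of other lists at most 2 genes with the smallest p that pass. The members and lists were chosen with earlier results of these data known. The WBcel235 annotation gave names (31 of 31 matched) and exon lengths only; no coordinates are given, since the files use WS220.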

Additional observations from a re-analysis of the deposited data

How the results depend on the processing

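With food, the count of members that differed between F4+3 and control larvae was 0, and it became 1 with a replicate block and 4 with DESeq2 on recovered reads, and 0 to 3 when each library was left out. Over all genes the main fit called 0 higher and 2 lower, and the block 6 and 46. DESeq2 called 50 and 157, and limma without fed control replicate 3 called 45 and 83. In fertile against control adults the count of 9 became 15 when only the compared groups entered the fit, and 2 to 13 when each library was left out. Over all 13413 tested genes, the compared groups alone gave 1679 higher and 3332 lower, against 1323 and 1613 in the main fit. The cause was not tested. A few values near 0 that did not pass changed sign: in sterile against control adults lgg-1 went to 0.090 and unc-51 to 0.17 with edgeR, and to 0.088 and 0.16 with TMM scaling. When each library was left out, unc-51 ran from −0.013 to 0.14 for food in control larvae, from −0.0027 to 0.15 in fertile adults and from −0.093 to 0.013 in sterile adults. In sterile against fertile adults lgg-2 ran from −0.15 to 0.0070 and bec-1 from −0.13 to 0.20. The block on replicate numbers changed the counts to 8 in fertile and 26 in sterile against control adults and left those for food at 19 and 24. Over all genes the block called 1346 higher and 1639 lower in fertile, and 5567 and 5620 in sterile, against control adults. For food it called 4441 higher and 4860 lower in control, and 4377 and 4870 in F4+3 larvae. Of the values recomputed, 2116 kept direction and side of the threshold, 87 lost a call, 26 gained one and 12 changed sign. Depth limits the statements on atg-10, whose larval values did not exceed 23.0 and whose sterile adult values did not exceed 7.94.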

Other observations

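The lysosome is the destination of autophagic cargo, and lists of its genes were counted beside the members. Without food, 15 of 21 V-ATPase genes, which acidify the lysosome, fell and 1 rose in control larvae, and the same counts held in F4+3 larvae, with medians of −0.53 and −0.51 on the log2 scale against 0.04 and 0.02 for all genes. Of all tested genes 27.6% rose and 30.5% fell in control larvae, and 27.1% rose and 30.4% fell in F4+3 larvae. Of 7 tested lipase genes, 3 rose and 2 fell in control and 5 rose and 2 fell in F4+3 larvae. Of 15 lysosome genes, 6 rose and 4 fell in control and 6 rose and 2 fell in F4+3 larvae. The lipase gene lipl-3 rose from 13.01 ± 5.03 to 274 ± 55.2 normalized counts in control larvae (SD, n = 3) and from 7.63 ± 3.24 to 315 ± 31.7 in F4+3 larvae, by 4.33 ± 0.32 and 5.26 ± 0.32 (limma, adjusted p = 4.9e-08 and 9.7e-09). By contrast the lipase gene lipl-6 was lower without food in control larvae (log2 fold change −2.45 ± 0.29, limma, adjusted p = 4.9e-06). The cathepsin gene cpl-1 rose by 0.86 ± 0.11 and 1.14 ± 0.11 (adjusted p = 8.6e-06 and 5.3e-07).

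In sterile against control adults 14 of 21 V-ATPase genes rose and 3 fell, 8 of 15 lysosome genes rose and 4 fell, and 3 of 6 tested lipase genes rose. Of all tested genes 41.3% rose and 41.8% fell, so the counts of the lysosome and lipase lists lie near the background. The V-ATPase gene vha-5 went from 1548 ± 14.02 to 4983 ± 260.4 (1.68 ± 0.10, adjusted p = 2.0e-07) and cpl-1 from 12713 ± 706 to 34719 ± 3119 (1.45 ± 0.11, adjusted p = 4.1e-07). The lysosomal channel gene cup-5 fell by 1.79 ± 0.11 (adjusted p = 2.4e-07). Sums of the muscle markers, at 101420 to 110120 in control and 253120 to 318320 in sterile adults, moved the same way as the V-ATPase genes, and their part was not tested.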
